A study of Mus musculus with 52 samples.

Results

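The libraries described here are 20 of 52 bulk RNA-seq libraries of primary mouse osteosarcomas, the 10 with the most and the 10 with the least skeletal muscle RNA. They were chosen from the 34 libraries without the column prefix R1002. Of these, 3 p53R245W/fl libraries were left out because Col1a1, the main collagen chain of bone, was under 13 log2 CPM (CPM being a gene's count scaled to the total of its library), and 31 were kept. Each kept library got a muscle score, the mean of log2(CPM + 1) over 5 genes of the contractile fibre: Ckm (muscle creatine kinase), Acta1 (skeletal actin), Tnnt3 (fast troponin T), Mylpf (fast regulatory light chain) and Atp2a1 (the calcium pump of fast fibres). The measured values of those genes therefore fixed the groups, and their own differences are given only as a description.

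The study compared osteosarcomas of mice with the genotypes p53R172H/fl, p53R245W/fl and p53fl/fl. The missense groups carry a point mutant of p53 opposite a floxed allele, and p53fl/fl mice carry floxed alleles only. A floxed allele is deleted where Cre recombinase acts. The Cre driver, the age of the mice and the site of each tumour are not stated in the labels used here. RNA came from flash frozen, crushed tumour pieces, so any host tissue in a piece was sequenced with the tumour. The muscle-rich libraries were 7 p53R172H/fl, 2 p53R245W/fl and 1 p53fl/fl tumour, and the muscle-poor libraries were 2 p53R172H/fl, 1 p53R245W/fl and 7 p53fl/fl tumours. Muscle content and genotype were thus tied together in this choice, and genotype was a covariate in the model. The column prefixes were uneven as well. Prefix R553 marked 6 muscle-rich and 3 muscle-poor libraries, and prefixes FM, FNM, WFM and WFNM marked 4 and 7. The main model had no term for them. Trp53 itself had 27.5 to 51.4 CPM in the 9 compared p53R172H/fl libraries and 18.8 to 28.6 CPM in the 3 compared p53R245W/fl libraries, against 8.31 to 19.1 CPM in the 8 compared p53fl/fl libraries.

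Skeletal muscle fibres are long cells that form when myoblasts exit the cell cycle and fuse. The regulators Pax7, Myod1 and Myog act in sequence in that process, and the young fibre first uses embryonic and neonatal myosin heavy chains (Myh3 and Myh8). A mature fibre replaces them with adult chains, Myh7 in slow fibres and Myh2, Myh1 and Myh4 in progressively faster ones, and builds the triads from which calcium is released. Muscle lies against the bones in which osteosarcomas grow, and skeletal muscle genes in a bulk tumour library can come from muscle tissue or from cells of the tumour that carry a muscle programme. In such bulk samples fewer muscle cells and less muscle RNA per cell cannot be told apart.

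The promoters of the adult fibre genes Myh4 and Ppp1r3a and of the developmental myosins Myh8 and Myh3 are set out here as a description. Whether the muscle pattern is mature or immature is read below from RNA levels and not from these windows. The sequences are the 200 bases before the RefSeq transcription start (GRCm38.p6), 5′ to 3′, with capitals marking the E-box CAGCTG (the site form bound by MyoD and myogenin), MEF2 sites and CArG boxes found on either strand. Myh4 lies at chr11:67237612-67237811 (plus strand), Ppp1r3a, the glycogen-targeting subunit of protein phosphatase 1 in muscle, at chr6:14755275-14755474 (minus strand), Myh8 at chr11:67276924-67277123 (plus strand) and Myh3 at chr11:67078100-67078299 (plus strand).
Myh4: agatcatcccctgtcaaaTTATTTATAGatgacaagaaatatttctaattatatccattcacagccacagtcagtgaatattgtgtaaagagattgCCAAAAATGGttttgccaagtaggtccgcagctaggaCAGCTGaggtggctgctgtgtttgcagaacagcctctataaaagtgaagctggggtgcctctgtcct
Ppp1r3a: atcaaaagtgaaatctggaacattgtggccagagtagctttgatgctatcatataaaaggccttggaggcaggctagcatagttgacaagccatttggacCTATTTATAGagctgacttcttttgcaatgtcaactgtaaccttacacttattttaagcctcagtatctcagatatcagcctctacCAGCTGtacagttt
Myh8: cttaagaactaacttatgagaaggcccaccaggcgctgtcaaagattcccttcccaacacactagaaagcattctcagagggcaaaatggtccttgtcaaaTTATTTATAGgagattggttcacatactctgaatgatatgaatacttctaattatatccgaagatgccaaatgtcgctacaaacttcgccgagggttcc
Myh3: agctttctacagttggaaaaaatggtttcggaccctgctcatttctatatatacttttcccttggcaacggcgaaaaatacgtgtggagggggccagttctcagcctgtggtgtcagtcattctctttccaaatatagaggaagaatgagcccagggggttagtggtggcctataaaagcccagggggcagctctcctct
Myh4 and Myh8 carry the same MEF2 letters, and none of the searched motifs is in the Myh3 window. CAGCTG was in 25 of 81 matched promoters of the mature fibre lists described below (30.9%), in 2 of 13 of the immature myogenic list (15.4%) and in 10.6% of 27025 promoters. A MEF2 site was in 16% of the mature fibre promoters, 7.69% of the immature ones and 2.35% of all, and a CArG box in 7.41%, 7.69% and 1.14%. These matches are a description of the windows and not evidence of binding.

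The muscle score ran from 6.54 to 10.4 in the muscle-rich libraries (median 7.46) and from 1.05 to 5.19 in the muscle-poor libraries (median 3.48). The library just inside the muscle-rich group was p53R172H/fl 1441 at 6.54, and the one just outside was p53R172H/fl 865 at 6.43. At the other end p53R245W/fl 1818 at 5.19 was just inside the muscle-poor group and p53R245W/fl 1575 at 5.45 just outside. The scores form a slope rather than separate clusters, apart from p53R172H/fl 1383 at the top and p53fl/fl 1512 at the bottom. Acta1 had 178 to 3095 CPM in muscle-rich libraries (median 453) and 2.13 to 89.0 CPM in muscle-poor libraries (median 26.9). The 10 muscle-rich libraries thus lie above all 10 muscle-poor libraries for this gene, and the same holds for Ckm, Tnnt3, Mylpf and Atp2a1.

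**Figure D1:**
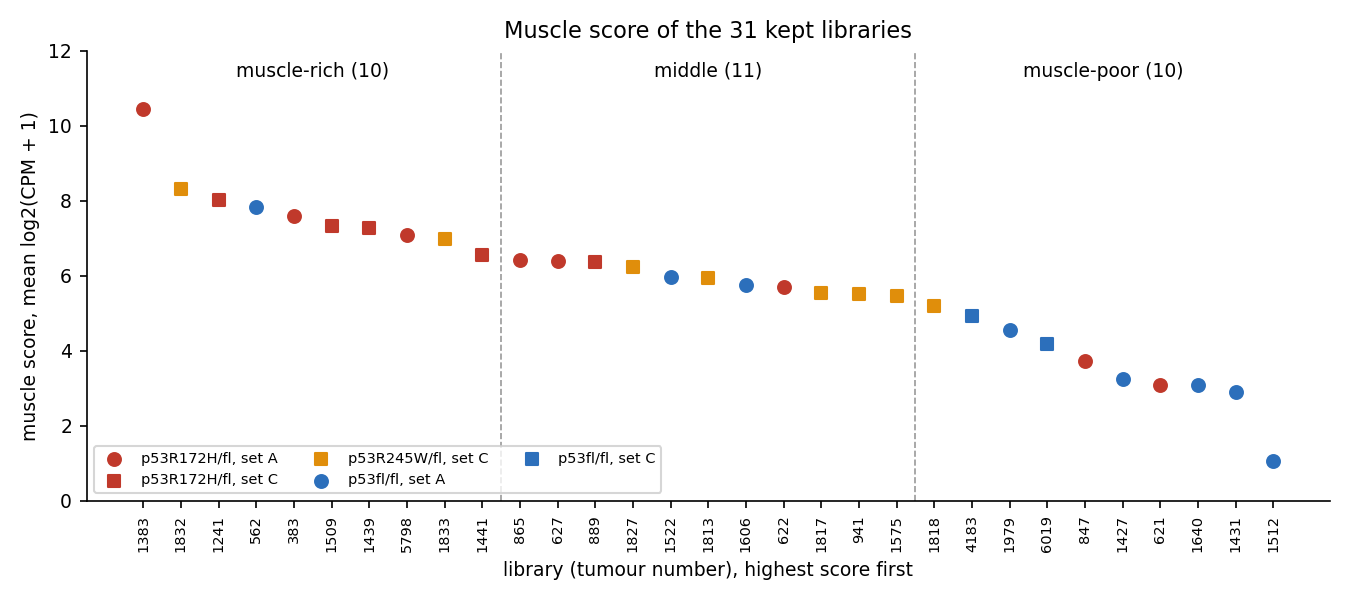
Muscle score (y axis, mean log2(CPM + 1) of 5 genes) of each of the 31 kept libraries (x axis, tumour numbers, highest score on the left), coloured by p53 genotype and shaped by library set. The muscle-rich end is mostly p53R172H/fl, with p53fl/fl library 562 as its only p53fl/fl member, and the muscle-poor end is mostly p53fl/fl.

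The 20 libraries held 36606728 to 60336397 counts each. Total counts, the share of the 50 most abundant genes, the share of mitochondrial genes and the share of unprocessed or intronic loci gave adjusted p = 0.337, 0.790, 0.896 and 0.790 between the groups in two-sided permutation tests with 100000 resamples (4 measures). Genes of the 5 mature fibre lists together took 0.587% to 6.08% of the counts in muscle-rich libraries (median 0.963%) and 0.216% to 0.348% in muscle-poor libraries (median 0.248%). The groups do not overlap, and the 6.08% belongs to library 1383, with the next library at 1.28%. Col1a1 was 14.4 to 16.2 log2 CPM in muscle-rich libraries and 14.9 to 16.3 log2 CPM in muscle-poor libraries. The groups overlap in it, and its high level in both was set by the minimum of 13 log2 CPM used to keep libraries.

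Across 20020 genes, edgeR's quasi-likelihood test with genotype in the model called 119 genes higher in muscle-rich libraries at a Benjamini-Hochberg adjusted p under 0.05, 0.594% of those tested, and 1 gene lower, 0.005%. The 5 score genes are outside these counts. Of the 119 genes, 48 were in the muscle lists and 71 were not. The lists do not hold every gene of muscle, so a gene outside them can still be a fibre gene. The libraries were chosen by fibre genes, so calls among other fibre genes describe what came with the score and are no independent support for it. The calls depended on p53fl/fl library 562, the only muscle-rich library of its genotype, through which all of the p53fl/fl weight in the contrast passes (28.3% of the total, against 50.2% for p53R172H/fl and 21.5% for p53R245W/fl). Without library 562 edgeR called 0 genes, with 894 genes at an unadjusted p under 0.05 and a lowest adjusted p of 0.370, although all 119 kept a positive difference. Without genotype in the model, the counts were 203 higher genes with library 562 and 190 without it, and 74 of 105 tested mature fibre genes were called higher with and without it. The share of all tested genes called in these fits is not given here, and the 0.594% above belongs to the model with genotype. The counts without library 562 were added after the data were seen.

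Fast fibre genes had the largest median difference of the muscle lists. Of 14 members beside the score genes, 10 were called higher, and the median log2 difference was 3.67, against 0.02 over all genes tested. Myh4, the fastest adult myosin heavy chain (chr11:67238029-67260446, plus strand, GRCm38), had 72.2 to 3601 CPM in muscle-rich libraries (median 514) and 3.10 to 42.6 CPM in muscle-poor libraries (median 12.4). Its log2 difference was 5.42 ± 0.85 (SE). Every muscle-rich library was above every muscle-poor library. Pvalb, the calcium buffer parvalbumin of fast fibres, had 16.7 to 430 CPM in muscle-rich libraries (median 41.8) and 0.22 to 6.88 CPM in muscle-poor libraries (median 2.58), a log2 difference of 4.80 ± 0.85. Mybpc2, the fast myosin binding protein C, differed by 4.70 ± 0.89, and Tnni2, the fast inhibitory troponin, by 4.02 ± 0.74, again with no overlap between the groups. Over all genes, 83 of 20020 (0.415%) had every muscle-rich library above every muscle-poor one. The remaining adult fast chains, Myh1 and Myh2, had log2 differences of 3.43 ± 0.86 (adjusted p = 0.085) and 3.55 ± 1.0 (adjusted p = 0.149), and for each of them 8 of 10 muscle-rich libraries were above the highest muscle-poor library. The member with a negative value was Myh13, the extraocular myosin chain, at a log2 difference of -0.74.

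The proteins that build any sarcomere followed. Of 30 such genes, 15 were called higher (median log2 difference 3.29). Des, the intermediate filament desmin that links neighbouring myofibrils, had 89.9 to 919 CPM in muscle-rich libraries (median 188) and 10.7 to 54.1 CPM in muscle-poor libraries (median 23.9), with a log2 difference of 3.64 ± 0.52. No muscle-poor library reached the lowest muscle-rich one. Mypn, the Z-disc protein myopalladin, had a log2 difference of 4.12 ± 0.74, Actn2, the Z-disc alpha-actinin, one of 4.04 ± 0.84 and Xirp2, an actin binding repair protein, one of 3.67 ± 0.81. The called members also include Ttn and Neb, the giant ruler proteins of the thick and thin filament.

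Genes of the calcium release machinery and the fibre membrane had 12 of 28 members called higher (median log2 difference 2.62). Ryr1, the release channel of the sarcoplasmic reticulum, had 56.4 to 1310 CPM in muscle-rich libraries (median 161) and 2.06 to 34.3 CPM in muscle-poor libraries (median 9.69), a log2 difference of 3.62 ± 0.73 with no overlap. Trdn (triadin, the channel's anchor) differed by 3.66 ± 0.73, Kcnj11 (the pore of the ATP-sensitive potassium channel) by 4.09 ± 0.86 and Sypl2 (mitsugumin 29 of the triad) by 4.71 ± 0.89. Of 22 genes of fibre metabolism, 7 were called higher, with a median log2 difference of 1.99. Ppp1r3a had 3.52 to 46.5 CPM in muscle-rich libraries (median 7.96) and 0.02 to 1.62 CPM in muscle-poor libraries (median 0.45), a log2 difference of 4.42 ± 0.76. Ckmt2, the mitochondrial creatine kinase, differed by 5.41 ± 1.004, with 9 of 10 muscle-rich libraries above the highest muscle-poor one. Ampd1, the muscle AMP deaminase, and Art1, an ADP-ribosyltransferase of the fibre surface, differed by 3.58 ± 0.59 and 3.32 ± 0.65.

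Of 14 slow fibre genes, edgeR called 2 higher, with a median log2 difference of 2.34. DESeq2 called 10 of them higher and limma voom 6, where these tools called 1.85% and 0.569% of all 20020 genes higher. Whether slow and fast genes differ in the size of the change was not tested. Myl2, the slow regulatory light chain, had 0.88 to 9.89 CPM in muscle-rich libraries (median 6.16) and 0.02 to 0.93 CPM in muscle-poor libraries (median 0.39), a log2 difference of 3.54 ± 0.80. Tnnt1, the slow troponin T, differed by 2.69 ± 0.59. Myh7, the slow myosin chain, had 1.97 to 75.9 CPM in muscle-rich libraries and 0.02 to 3.26 CPM in muscle-poor libraries, a log2 difference of 4.002 ± 0.94 that missed the threshold (adjusted p = 0.061).

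**Figure D2:**
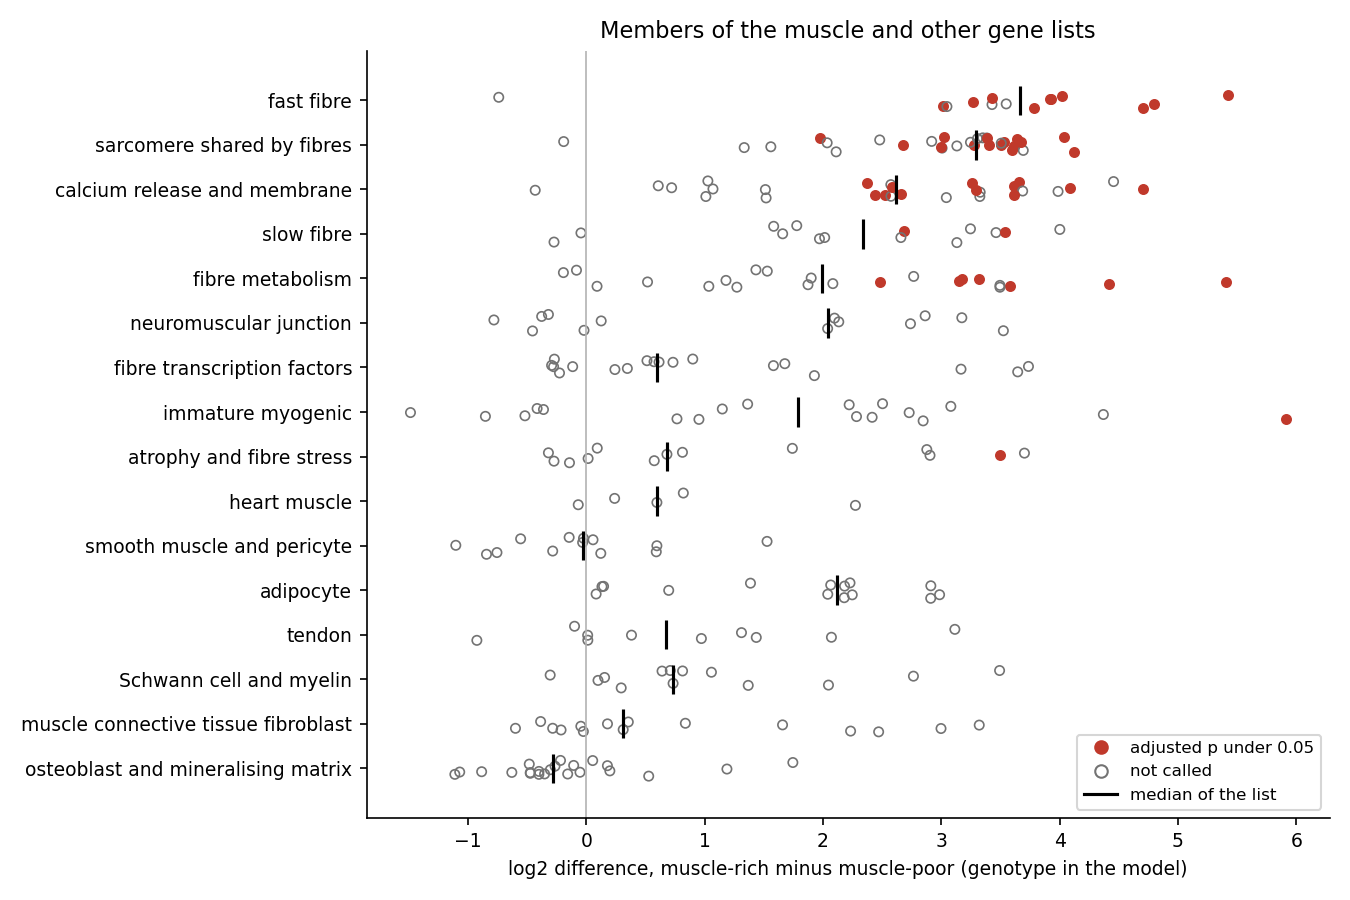
Log2 difference between muscle-rich and muscle-poor libraries (x axis, muscle-rich minus muscle-poor) for each tested member of 16 gene lists (rows). Filled red points are genes called by edgeR at an adjusted p under 0.05, open points were not called and black bars are list medians, which are 3.67 for fast fibre, 1.79 for immature myogenic and -0.28 for osteoblast genes.

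The 6 myosin heavy chain genes were set against one another per kilobase of exon, so that their levels can be compared. The adult chains Myh4, Myh1, Myh2 and Myh7 made up 94.7% to 99.2% of the summed level in muscle-rich libraries (median 98.4%) and 89.5% to 99.5% in muscle-poor libraries (median 96.4%). The embryonic and neonatal chains Myh3 and Myh8 made up 0.78% to 5.27% in muscle-rich libraries (median 1.65%) and 0.47% to 10.5% in muscle-poor libraries (median 3.65%). The ranges overlap. Within the muscle-rich group p53R172H/fl 5798 had the most developmental myosin at 5.27% and p53R172H/fl 1441 the least at 0.78%. Myh4 was the most abundant chain in 8 of 10 muscle-rich libraries, the exceptions being p53R172H/fl 383 (Myh1, 39.7%) and p53R245W/fl 1833 (Myh2, 39.4%). In the muscle-poor group Myh4 led in 4 of 10 libraries and Myh1 in 6. The shares rest on 16464 to 412550 myosin counts a library in the muscle-rich group and on 318 to 12384 in the muscle-poor group. The long exon length of Myh8 (11.8 kb against 6.02 kb for Myh4) lowers its share where short transcripts are used.

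**Figure D3:**
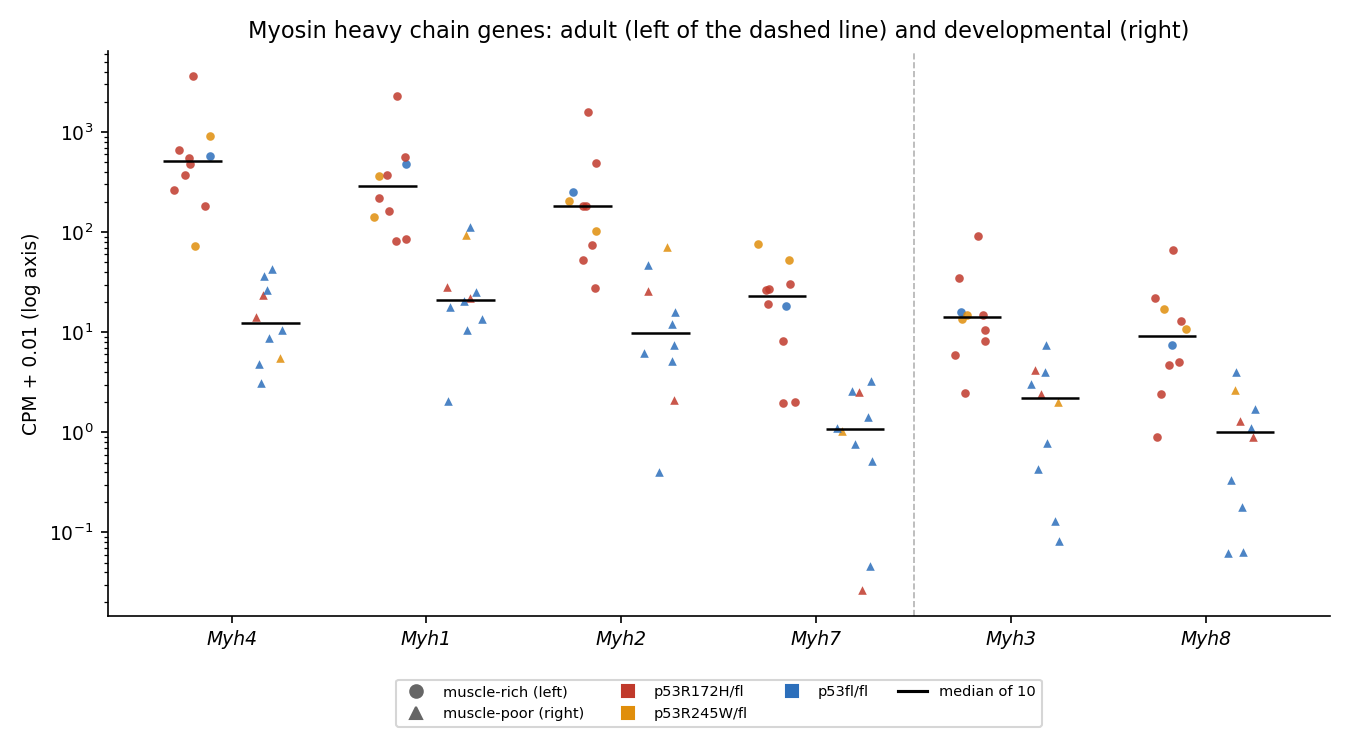
CPM + 0.01 (y axis, log scale) of 6 myosin heavy chain genes (x axis) in each muscle-rich library (circles, left) and muscle-poor library (triangles, right), coloured by genotype, with bars at the medians of 10. The adult chain Myh4 had medians of 514 and 12.4 CPM, and the embryonic chain Myh3 medians of 14.3 and 2.21 CPM.

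Of the immature myogenic genes, edgeR called 1 higher between the groups. The list holds 20 genes, of which 18 were analysed here and tested. Their summed level was 185 to 835 CPM in muscle-rich libraries (median 344) and 103 to 569 CPM in muscle-poor libraries (median 315), so the groups overlap. By their medians Ncam1, Cdh15 and Megf10, which other cells share, carry much of this sum. It therefore says little about members of low level. Pax7, the transcription factor of muscle stem cells, was the only member of the list called (log2 difference 5.91 ± 1.11), at 0.00 to 2.12 CPM in muscle-rich libraries (median 0.19) and 0.00 to 0.02 CPM in muscle-poor libraries (median 0.00). At such counts the fitted difference depends on the prior count of the fit. The list's median log2 difference was 1.79. DESeq2 called 5 of the 18 higher (Pax7, Myod1, Myh3, Myh8 and Actc1), and limma voom called 0, beside shares of 1.85% and 0.569% over all genes. Myh3 had 2.48 to 92.3 CPM in muscle-rich libraries (median 14.3) and 0.07 to 7.50 CPM in muscle-poor libraries (median 2.21), a log2 difference of 2.73 ± 0.91 (edgeR adjusted p = 0.303). Myh8 had 0.89 to 66.0 CPM in muscle-rich libraries (median 9.08) and 0.05 to 4.04 CPM in muscle-poor libraries (median 0.99), a log2 difference of 3.08 ± 1.05 (edgeR adjusted p = 0.320). For each of them 8 of 10 muscle-rich libraries were above the highest muscle-poor one. Library 1383 held the highest value of both.

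Myod1, which commits cells to the muscle lineage, had 0.88 to 14.6 CPM in muscle-rich libraries (median 3.61) and 0.00 to 2.05 CPM in muscle-poor libraries (median 0.42), a log2 difference of 2.85 ± 1.17 (edgeR adjusted p = 0.502). Myog, which drives terminal differentiation, had 2.63 to 31.4 CPM in muscle-rich libraries (median 6.71) and 0.18 to 5.15 CPM in muscle-poor libraries (median 1.33), a log2 difference of 2.22 ± 0.91 (edgeR adjusted p = 0.494). The fusion proteins Mymk and Mymx reached at most 1.88 and 0.57 CPM in a muscle-rich library. The fetal fibre genes Actc1, Myl4 and Tnnt2 had medians of 2.31, 9.35 and 4.25 CPM in muscle-rich libraries and 0.27, 4.59 and 2.01 CPM in muscle-poor libraries. The members with the highest levels did not separate the groups. Ncam1, Cdh15 and Megf10, adhesion and engulfment receptors that muscle precursors share with other cells, had medians of 98.1, 64.9 and 70.8 CPM in muscle-rich libraries and 87.6, 58.3 and 69.4 CPM in muscle-poor libraries, and Pax3 (the paralogue of Pax7) medians of 1.37 and 1.31 CPM. Dlk1, Chrng and the remaining members Fgfr4 and Calcr also overlapped between the groups. The score genes are fibre genes, and Tnnt3, Mylpf and Atp2a1 are fast ones, so the choice of libraries favoured mature and fast genes. Fast against slow was not tested. By list medians between the groups (3.09 for mature fibre, 1.79 for immature), the pattern was mainly one of mature fibre genes. Yet Myh8, Myod1 and Myh3 lay near the mature median, while Ncam1 (-0.36), Cdh15 (-0.85) and Megf10 (-0.42) were negative. Embryonic and neonatal myosin had a small share in both groups, so that share does not mark their difference. The order of the medians was not the same in every fit on the score. Within the R553 libraries the immature median slope was 0.87 and the mature one 0.82. In the other libraries without prefix R1002 they were -0.02 and 0.63. The immature medians of these fits rest on 10 and 7 tested members, so they do not compare the same genes.

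Regulators of the mature fibre and genes of the nerve contact were not called by edgeR between the 10 highest and 10 lowest libraries, though some followed the score over all libraries. Of 18 fibre transcription factors and 13 neuromuscular junction genes, 0 passed edgeR's threshold (5 and 7 had an unadjusted p under 0.05), while DESeq2 called 3 and 6 of them higher (1.85% of all genes) and limma voom 0 of each. Myf6, the myogenic factor of adult fibres, had 2.14 to 40.95 CPM in muscle-rich libraries (median 5.79) and 0.05 to 1.36 CPM in muscle-poor libraries (median 0.43), with no overlap, a log2 difference of 3.65 ± 1.03 and an adjusted p = 0.148. Among 13 genes of atrophy and fibre stress, Trim63, a ubiquitin ligase that tags sarcomere proteins, was called, at 4.43 to 48.7 CPM in muscle-rich libraries (median 9.06) and 0.32 to 2.54 CPM in muscle-poor libraries (median 1.07).

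Taking the score as a number over all 31 kept libraries used the middle ones too. edgeR then called 284 of 15785 genes higher with the score (1.80%) and 12 lower (0.076%). Of the mature fibre genes tested, 77 of 98 were called higher, among them all 12 tested fast fibre genes and 28 of 30 sarcomere genes. The immature list had 8 of 12 tested members called higher. So had 3 of 15 fibre transcription factors (Myf6, Ankrd2 and Prox1) and 5 of 11 neuromuscular junction genes, which were Musk, Dok7, Chrnb1, Chrna1 and Ache. Myf6 gained 1.03 ± 0.08 per unit of score on the log2 scale, and Musk, the receptor kinase of the junction, 0.76 ± 0.07 (SE). Without library 562 the calls left were Myf6 and, of the junction genes, all but Ache. Per unit of score Myh4 gained 1.09 ± 0.09 on the log2 scale, Myh8 0.92 ± 0.15, Myod1 0.80 ± 0.13, Myh3 0.75 ± 0.13 and Myog 0.66 ± 0.10 (SE). Developmental genes thus went along with the score when all libraries were used. Without library 562 the counts were 210 of 15823 genes higher (1.33%), 9 lower (0.0569%), 76 of 98 mature fibre genes and 7 of 12 immature genes, the lost one being Dlk1 (adjusted p = 0.914). A test of whether the slope on the score differed between genotypes called 0 of 15790 genes with edgeR (712 at an unadjusted p under 0.05, lowest adjusted p 0.071).

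The libraries with the prefix R1002 took no part in the choice of groups. Each of the 18 was compared in its expression profile only with libraries of its own genotype outside that set. The closest library of that genotype was a mutual match in 18 of 18 pairs. Spearman correlations were 0.641 to 0.927 across 14315 genes, after differences between library sets and genotypes were removed. The next best library of the genotype was at 0.333 or below. The R1002 libraries may therefore come from the same tumours as their matches and are not treated as new animals. The scores of a pair differed by a median of 0.11, and at most by 1.81, in a p53R245W/fl pair whose library in the main set was left out for low Col1a1. Matched libraries of 5 muscle-rich tumours scored 7.46 to 8.08, and those of 5 muscle-poor tumours scored 2.90 to 5.03.

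**Figure D4:**
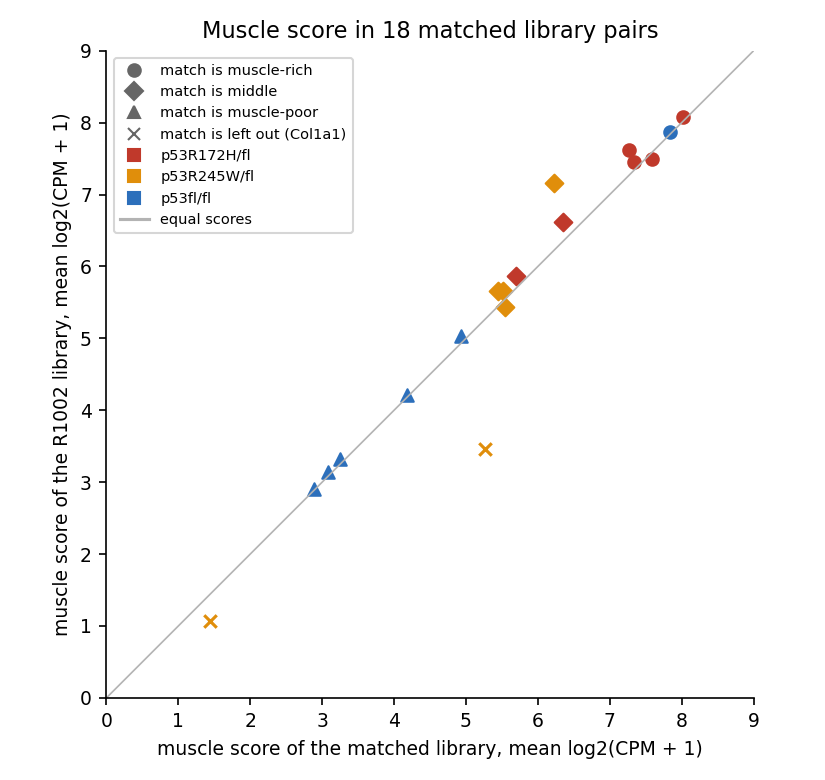
Muscle score, mean log2(CPM + 1), of the 18 R1002 libraries (y axis) against the library each one matched (x axis), with shapes for the group of the match, colours for genotype and a grey line at equal scores. The matches of muscle-rich libraries sit at 7.46 to 8.08 and those of muscle-poor libraries at 2.90 to 5.03.

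Over the 16 R1002 libraries with enough Col1a1, edgeR called 91 of 14163 genes higher with the score (0.643%) and 3 lower (0.0212%). Mature fibre genes gave 44 of 91 calls, with 11 of 12 fast fibre genes, 19 of 29 sarcomere genes and 0 of 11 slow fibre genes (5 slow genes at an unadjusted p under 0.05). The immature list gave 0 of 8 (2 at an unadjusted p under 0.05). Of the 119 genes called between the groups, 70 could be tested in the R1002 libraries and 70 had a positive slope, where 7013 of all 14163 genes had one. Of these 70, 53 were called, which is 44.5% of the 119 and 58.2% of the 91. The remaining genes of the 119 did not pass the filter of this fit, and the direction of fibre genes follows from the score. Des gained 1.04 ± 0.07 on the log2 scale per unit of score, and Tnni2 1.06 ± 0.06. These calls too leaned on the p53fl/fl tumour with much muscle: without library 475, the match of 562, 9 of 14228 genes were called higher (0.0633%) and 1 lower (0.00703%), with 4 of 12 fast fibre genes among them.

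Of the 71 called genes outside the muscle lists, 41 had their highest value in library 562, at 1.22 to 192 times the next highest muscle-rich library (median 5.98). The share of all tested genes that peak in library 562 was not counted. All of the p53fl/fl weight in the contrast passes through this library, so the 41 are given only as a description. None of the 48 called muscle list genes had its highest value there. H19, an imprinted growth-restraining RNA on chromosome 7, had 1742 CPM in library 562 and 44.9 to 488 CPM in the other muscle-rich libraries, against 4.03 to 74.5 CPM in muscle-poor libraries (edgeR adjusted p = 0.003). Peg3, an imprinted zinc finger gene, had 1290 CPM in library 562 and at most 55.8 CPM in another muscle-rich library, against 1.41 to 17.2 CPM in muscle-poor libraries. Dlk1 and Meg3, imprinted neighbours on chromosome 12, had 674 and 1014 CPM in library 562, at most 5.02 and 32.7 CPM in the other muscle-rich libraries, and at most 2.90 and 17.6 CPM in muscle-poor libraries. Meg3 was picked after its values were seen. Nrk, Hif3a and Slc7a10 had 147, 101 and 55.2 CPM in library 562 and at most 1.225, 0.53 and 0.76 CPM in the other muscle-rich libraries, against at most 0.57, 0.93 and 1.252 CPM in muscle-poor libraries. Library 475, the match of 562, had 1340 CPM of H19, 1246 of Peg3, 698 of Dlk1, 782 of Meg3 and 172.2 of Nrk. Without library 562, Peg3 and Meg3 did not follow the score in edgeR (adjusted p = 0.160 and 0.534). In that fit 5 of 18 testable genes of these 41 were called, where 1.33% of all genes were called higher.

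**Figure D5:**
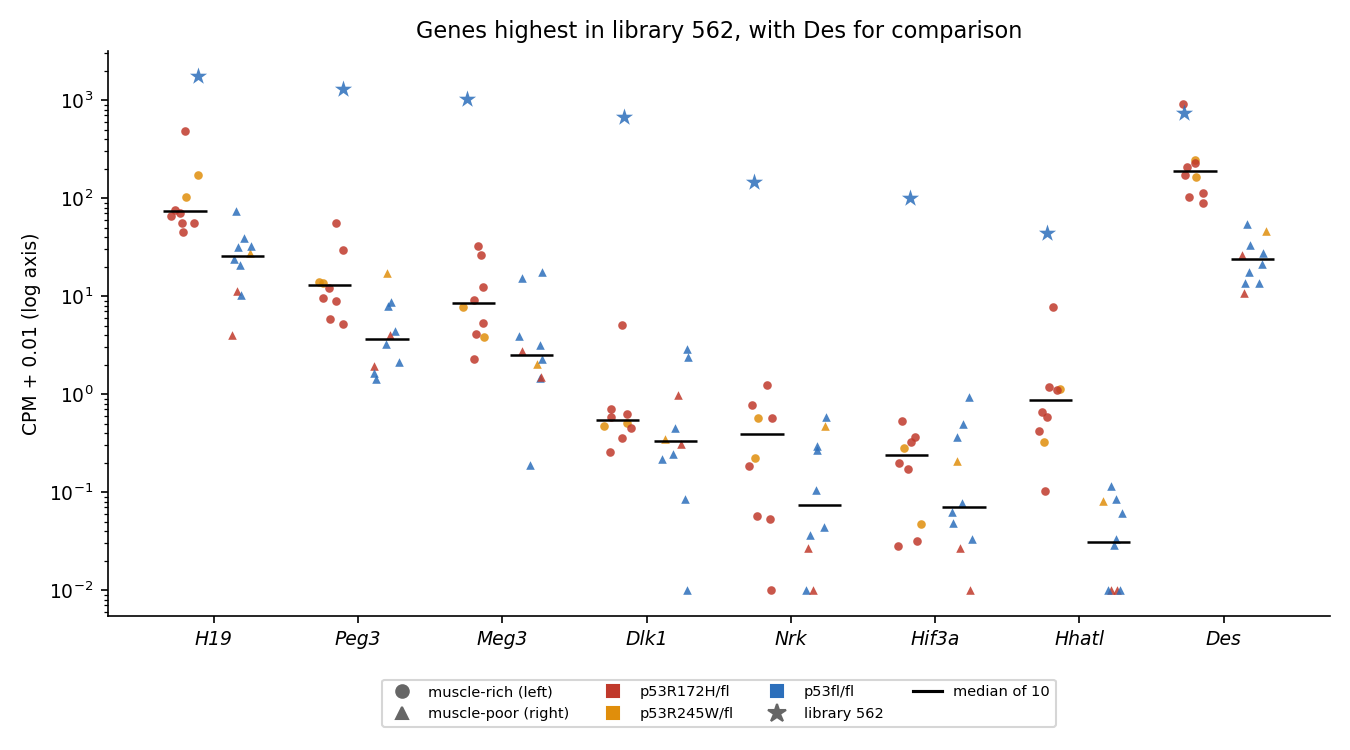
CPM + 0.01 (y axis, log scale) of 7 genes that were highest in library 562 (stars) and of Des, in muscle-rich libraries (left) and muscle-poor libraries (right), coloured by genotype, with bars at the medians of 10. For Dlk1 library 562 had 674 CPM while the medians were 0.54 and 0.32 CPM. For Des library 562 lay within the muscle-rich range but near its top, at 0.80 times library 1383. The median of this ratio to the highest other muscle-rich library was 0.215 over the called muscle list genes.

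The other 30 called genes outside the lists had their highest value in another library, 29 of them in library 1383, which had the highest score. Only 20 of the 30 could be tested on the score without library 562, and all 20 were called, against 1.33% of all genes called higher. That fit reuses most of the libraries that gave the calls, so it is no independent support. Lrrc2, a leucine-rich repeat protein gene, had 1.92 to 16.3 CPM in muscle-rich libraries (median 4.11) and 0.34 to 1.02 CPM in muscle-poor libraries (median 0.55), a log2 difference of 2.77 ± 0.45 (edgeR adjusted p = 0.012). Eda2r, a receptor of ectodysplasin A2 that is also a p53 target, had 3.96 to 29.2 CPM in muscle-rich libraries (median 6.63) and 0.56 to 2.58 CPM in muscle-poor libraries (median 1.16), a log2 difference of 2.90 ± 0.56 (edgeR adjusted p = 0.018). It was the only one of 20 p53 targets called, and the median of that list was 0.04. Wnk2, a kinase that acts on ion transport, had a median of 2.06 CPM in muscle-rich libraries and 0.16 CPM in muscle-poor libraries. Serinc2 and Hhatl were higher in most muscle-rich libraries (10 and 9 of 10 above the highest muscle-poor library) but reached 29.1 and 43.9 CPM in library 562. The channel gene Kcnq3 and the adhesion gene Negr1 also peaked there, at 28.9 and 26.8 CPM. The only lower gene was the processed pseudogene Gm8730 (log2 difference -3.72 ± 0.80), named because it is a count of 1. It had 173 CPM in muscle-rich library 1833 and 343 and 239 CPM in muscle-poor libraries 1818 and 847, and 1.13 to 5.88 CPM in the other compared libraries.

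Markers of the tissues that lie around muscle and bone were not called by edgeR between the groups, but a few followed the score over all libraries. Between the groups edgeR called 0 of 13 smooth muscle and pericyte genes, 0 of 15 endothelial, 0 of 15 connective tissue fibroblast, 0 of 10 tendon, 0 of 13 Schwann cell and 0 of 22 osteoblast genes (1, 0, 5, 4, 4 and 0 at an unadjusted p under 0.05). DESeq2 called 3 of the fibroblast genes higher and 0 in the other 5 of these lists. Over 31 libraries edgeR called 3 of 13 fibroblast genes (Hmcn2, Cxcl14 and Pi16), 1 of 9 tendon genes (Col14a1) and 2 of 9 Schwann cell genes higher with the score, where 1.80% of all genes were called. Hmcn2 gained 0.58 ± 0.08 and Col14a1, a collagen of tendon and connective tissue, 0.40 ± 0.07 on the log2 scale per unit of score (SE). Without library 562 Pi16 and both Schwann cell genes were not called. In the R1002 libraries Hmcn2, Col14a1 and the cartilage gene Sox9 were called higher, and none of these without library 475. Summed tendon genes had 853 to 5160 CPM in muscle-rich libraries (median 2596) and 327 to 4263 CPM in muscle-poor libraries (median 2002). Summed osteoblast genes had medians of 101700 CPM in muscle-rich libraries and 104700 CPM in muscle-poor libraries. Adipocyte genes had a median log2 difference of 2.12 with 14 of 14 positive and 0 called by edgeR (2 at an unadjusted p under 0.05, and 1 called by DESeq2). Their summed level was 39.02 to 212 CPM in muscle-rich libraries (median 121) and 39.03 to 312 CPM in muscle-poor libraries (median 71.2), and in the R1002 libraries their median slope on the score was -0.01. Osteoclast, macrophage and neutrophil genes had negative medians (-0.60, -0.45 and -1.31 on the log2 scale) with 0 called in each by edgeR and by DESeq2 (1, 3 and 0 at an unadjusted p under 0.05 with edgeR). The direction was not the same in every fit. Within the libraries with prefix R553 alone, 7 of 7 tested neutrophil genes had a positive slope, with a median of 1.63 on the log2 scale per unit of score, 7 at an unadjusted p under 0.05 and 0 called. Over 31 libraries 12 of 16 macrophage genes had a positive slope, with a median of 0.036 and 0 called. Heart muscle genes summed to 1.60 to 16.04 CPM in muscle-rich libraries and 1.33 to 10.6 CPM in muscle-poor libraries, with 0 of 5 called by either tool (1 at an unadjusted p under 0.05 with edgeR). Whether any of these tissues has a part in the muscle pattern was not tested.

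Mature fibre genes were called higher within each genotype and each library set taken alone, in fits of the score as a number. The score is itself made of fibre genes, so these calls describe what came with it. They are no independent support for the pattern. Within p53R172H/fl 69 of 87 tested mature fibre genes were called higher, within p53R245W/fl 40 of 101 and within p53fl/fl 28 of 67, where 1.07%, 0.429% and 0.371% of all genes tested were called higher. Immature myogenic genes gave 4 of 12 calls within p53R172H/fl, 0 of 10 within p53R245W/fl and 0 of 5 within p53fl/fl. In set A, the libraries with prefixes FM, FNM, WFM and WFNM, 66 of 87 mature fibre genes were called, with 203 of 15118 genes called higher in all (1.34%). In set C, the libraries with prefix R553, 56 of 98 were called, with 95 of 14904 in all (0.637%). The immature list gave 2 of 7 in set A and 0 of 10 in set C. Library 562, the only muscle-rich p53fl/fl library, was in both the p53fl/fl fit and the set A fit. Set A also held library 1383, which had the highest score. How far the calls within p53fl/fl and set A rest on library 562 is not shown, because these fits are given only with it.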

How the data were processed

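Gene counts of 52 bulk libraries were deposited by the authors as 1 table of raw counts, not normalized. Reads were aligned with STAR to GRCm38, per the submitters' processing notes; no counting tool is named in the labels. The table holds 20730 genes, each with at least 260 counts over all libraries, and 20668 identifiers matched GENCODE M21. The libraries are labelled stranded. CPM uses the column total as library size. Libraries were ranked by the score given above. Counts were tested with edgeR 4.0.16 (quasi-likelihood, robust, TMM factors, filterByExpr with a minimum count of 10) in R 4.3.3, with genotype and group as terms, tested on simulated data first, and p-values were Benjamini-Hochberg adjusted over all genes tested. The filter was given the design in comparisons of groups and no design in fits on the score. The group comparison therefore kept genes seen in fewer libraries (20020 genes tested, against 15785 for the score over 31 libraries). Errors are standard errors of log2 differences. Alternatives used DESeq2 1.42.0 and limma 3.58.1. Permutation tests used Python 3.11.15 with SciPy 1.17.1. The depth of each library sets the precision of its CPM, and the labels do not say that libraries of 1 group came from separate animals, so p-values measure the spread between libraries.

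Members and gene lists were chosen with earlier results of these data known. Named genes were called genes with a mean of at least 1 CPM and a regular symbol: the 8 largest rises and 5 smallest p-values outside the muscle lists, the 8 largest rises within them, up to 4 called members of each list, the immature list, Myf6 and the score genes; Myh1, Myh2, Myh7, Myh13, Ttn, Neb and Gm8730 were named after their values were seen, as were the few members of other lists called in fits on the score or by DESeq2. 1 gene that met the rule is not reported here.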

Additional observations from a re-analysis of the deposited data

Results flagged for a closer look

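In groups of 10 libraries, a value was set apart where its gap to the nearest other library exceeded Dixon's 95% critical share of the group's range. For unselected, normally distributed values chance does this in about 1 in 20 groups. That rate does not hold here, because the libraries were chosen by the score and many genes were named for large differences. Of 110 tested groups of values, 23 met the rule. Values of genes are log2(CPM + 1).

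Library p53R172H/fl 1383 stood above the other muscle-rich libraries in the score (10.4, next 8.32), in the share of counts in the fibre lists (6.08%, next 1.28%) and in Pvalb (8.75), Sypl2 (5.66), Mypn (6.57), Kcnj11 (3.74), Xirp2 (10.1), Lrrc2 (4.11), Pax7 (1.64) and Chrng (3.62). Library p53fl/fl 562 stood above the others in Nrk (7.21), Hif3a (6.67), Slc7a10 (5.81), Negr1 (4.80), Kcnq3 (4.90), Peg3 (10.3), Meg3 (9.99) and Dlk1 (9.40). Library p53R245W/fl 1833 did so in Gm8730 (7.44).

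Among muscle-poor libraries, p53R245W/fl 1818 stood above the others in Ckmt2 (1.67), p53fl/fl 1979 in Myod1 (1.61), and p53fl/fl 6019 in Slc7a10 (1.17) and Mymx (0.38). No explanation was tested for these values.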

How the results depend on the processing

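Values from fits on the score as a number are scaled to the mean score gap between the groups, 4.15. Both list medians stayed positive in every alternative run, except the immature median within set A (-0.087). Leaving out each library in turn gave 0 to 162 higher and 0 to 5 lower genes. Without library 562 no gene was called; without muscle-poor libraries 621, 847 and 1431 there were 44, 75 and 75 higher genes. With 1 p53fl/fl library in the muscle-rich group, its omission leaves no p53fl/fl contrast. The medians over these omissions were 2.75 to 3.41 for mature and 1.39 to 2.01 for immature genes.

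Higher and lower genes numbered 370 and 36 with DESeq2, 203 and 9 without genotype, 48 and 2 for 5 against 5 libraries, 284 and 12 for the score over 31 libraries, and 203 and 22 within set A. They numbered 64 and 1 within p53R245W/fl, 53 and 4 within p53fl/fl, 210 and 9 for 30 libraries without 562, 190 and 4 without genotype and 562, and 9 and 1 in the R1002 libraries without 475. The lower count alone moved to 2 with no filter, 7 with library set as a term, 0 for 15 against 15, 4 with no Col1a1 minimum, 0 within set C, 3 in the R1002 libraries, 10 in the matched libraries and 2 within p53R172H/fl. The mature median moved to 4.34 for 5 against 5, 2.21 for 15 against 15 and 2.14 within p53fl/fl. The immature median moved to 2.85 for 5 against 5, 3.62 within set C, 3.42 within p53R245W/fl, 0.71 within p53fl/fl, 0.67 in the R1002 libraries (0.89 without 475) and 0.46 in the matched libraries. Each median is over the members that passed the filter of its fit (18 in the main comparison, 10 within set C and 8 in the R1002 libraries). The cause of these shifts was not tested, and RLE factors, TMM without muscle genes and voom moved neither total count, higher or lower, by over 1.5 times. Within lists voom called 6 slow fibre genes, where edgeR called 2.

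Among named called genes, the direction turned for Peg3 (-1.03 within set C, -1.40 within p53R245W/fl and -0.96 in the R1002 libraries without 475), Meg3 (-0.31) and Gm8730 (0.19) in the last of these. Among genes not called it turned for Dlk1 (-0.15 within p53R172H/fl) and, in the matched libraries, for Mymk (-0.52), Mymx (-0.91) and Tnnt2 (-1.36). Ncam1 turned to 1.03 within set C, 1.21 within p53R245W/fl, 0.27 within p53fl/fl, 0.029 and 0.048 without 562 (score, and no genotype) and 0.89 in the R1002 libraries without 475. Cdh15 turned to 0.015 for 15 against 15, 1.26 within set C, 2.81 within p53R245W/fl and 2.16 without 475, and Megf10 to 0.057 over 31 libraries, 0.34 without 562, 0.20 with no Col1a1 minimum, 0.78 within set C, 0.71 within p53fl/fl and 0.89 without 475. Of 623 values for genes called between the groups, 487 kept their direction and call and 131 lost the call. No paired analysis was possible because the groups share no replicate numbers. Genes at a few counts a library, such as Pax7, are limited by depth.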
